A study of Mus musculus with 2 samples.

Results

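The subunits that tell apart the 3 forms of the mammalian BAF (SWI/SNF) chromatin remodeler are the subject here: Arid1a, Arid1b and Dpf2 of canonical BAF (cBAF), Arid2, Pbrm1, Brd7 and Phf10 of polybromo-associated BAF (PBAF), Brd9 of non-canonical BAF (ncBAF), Ss18, which cBAF and ncBAF share, and Bcl7c, a subunit found in all 3 forms. They were chosen by gene symbol, and all 10 were found in both libraries, among 33456 genes. BAF complexes use the ATPase BRG1 (Smarca4) or BRM (Smarca2) to slide or eject nucleosomes, and the variant-specific subunits decide which of the 3 assemblies forms around a shared core and, through their DNA-binding, bromodomain and PHD-finger modules, where it is found on chromatin. BAF155, encoded by Smarcc1, is a scaffold of that core, to which the other subunits are joined in successive steps. In the yolk sac, blood first appears as primitive erythroid cells and then as erythromyeloid progenitors, which give erythroid, megakaryocyte, macrophage and granulocyte cells.

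The study compared yolk sac cells of B6 mice in 1 library from wild-type (wt) embryos and 1 from Baf155 CKO embryos, called WT and CKO below. In each genotype, yolk sacs from E9.5 embryos and from as many E10.5 embryos were pooled, treated with 0.25% collagenase, frozen, and sorted for live Ter119-negative cells before droplet 5′-end RNA sequencing on the 10x Genomics platform. The labels call the material nuclei and the protocol describes live cells. The Cre driver, the deleted exons and the number of embryos were not given in the sources used here. With 1 library per genotype there was no replicate, so no difference below has a test. Every interval is an exact 95% interval of counting error only (Poisson for a level, binomial for a share, conditional binomial for a ratio), and a genotype difference cannot be told apart from a difference between libraries.

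Of the barcodes, 784 WT and 841 CKO cells were kept, at median depths of 28186 and 28268 unique molecular identifiers (UMIs, a tag for each captured transcript) per cell. Cells were gated by marker genes, no member among them, and 675 WT and 721 CKO cells passed exactly 1 gate. The progenitor gate (led by Prtn3 and Mpo, granulocyte-type genes) held 177 WT and 118 CKO cells, the erythroid gate (globins, Alas2) 164 and 255, the endothelium gate (Stab2, Lyve1) 47 and 39, and the stromal gate (Lum, Col1a1) 245 and 280. The endoderm gate (Apoa1, Ttr) held 28 WT and 2 CKO cells, the megakaryocyte gate (Pf4, Gp1bb) 1 and 25, and the macrophage gate 13 and 2. The sort against Ter119 can set the erythroid share, and the erythroid cells here are those that passed it. Globin UMIs in stromal cells, which do not make globin, were 0.0336% of all UMIs in WT and 0.235% in CKO. The part of such free RNA in the results was not tested.

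Clustered on variable genes, whether gated or not, progenitor, erythroid and stromal cells fell largely in different clusters in the 2 libraries. Of the clusters of progenitor type, 3 were mostly WT (119 WT and 21 CKO, 63 and 20, 58 and 0 cells), and 1 held 0 WT and 160 CKO cells and passed 9 progenitor and 7 endothelium markers. Of the erythroid clusters, 1 held 154 WT and 17 CKO cells and the other 0 and 236. Among stromal clusters, 1 with 81 WT cells and 1 CKO cell was mostly WT, as was another that held more WT cells. Of the others, 2 were mostly CKO (10 and 105, 2 and 121), and the rest were mixed, with no such lean to either library. The main endothelial cluster held 50 and 30. Endothelium markers summed to a median of 280 CPM (UMI counts per 1000000 UMIs) a cell in WT and 467 CPM in CKO progenitor-gated cells. Genotype differences in progenitor, erythroid and stromal cells therefore also compare different clusters, whose part was not tested.

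Smarcc1, the targeted gene, was lower in CKO cells of the 4 classes compared (progenitor, erythroid, endothelium, stromal). In progenitor cells the WT level was 126 CPM and the CKO level 42.6 CPM, which gives a ratio of 0.337 (0.287 to 0.393). The ratio was 0.126 in erythroid, 0.116 in endothelial and 0.312 in stromal cells. Some Smarcc1 signal was therefore left in CKO cells, with a UMI in 55.1% of progenitor and 18.4% of erythroid cells.

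The widest difference of a member between classes of 1 library was 4.99-fold on the non-globin scale, for Ss18 in WT. Relative to progenitor cells, erythroid cells of both libraries had less Ss18, Bcl7c, Arid1a and Arid2 and more Pbrm1 and Phf10 on that scale, and the Dpf2 ratio interval held 1. Levels between classes are given as non-globin CPM (UMI counts per 1000000 UMIs of genes other than globins), because globins took 28.9% of erythroid UMIs in WT and 26.9% in CKO. This scale decides some calls. Per all UMIs, Pbrm1 in erythroid over progenitor cells was at 1.07 (0.954 to 1.21) in WT and 1.31 (1.16 to 1.49) in CKO, and Phf10 at 1.18 (1.00 to 1.38) and 1.08 (0.903 to 1.30). Dpf2 was then lower in erythroid cells, at 0.645 (0.528 to 0.786) and 0.672 (0.564 to 0.802), and so was Brd7, at 0.635 (0.557 to 0.723) and 0.560 (0.489 to 0.642). Per non-globin UMIs Brd7 was at 0.893 (0.784 to 1.02) in WT and still lower, at 0.765 (0.668 to 0.877), in CKO. Arid1b in WT was at 0.481 (0.306 to 0.740) per all UMIs and 0.676 (0.430 to 1.04) per non-globin UMIs. Brd9 in CKO was at 0.655 (0.505 to 0.851) and 0.893 (0.689 to 1.16). Ss18, Bcl7c, Arid1a and Arid2 were lower in erythroid cells of both libraries per all UMIs, per non-globin UMIs and with ribosomal protein and mitochondrial UMIs also left out. Over the 10 members, the erythroid-over-progenitor log2 ratios of the WT and CKO libraries correlated with a Pearson r of 0.96, and 9 of 10 had the same sign, Brd9 being the exception. For stromal over progenitor cells r was 0.82, with 9 of 10 of the same sign. These correlations are descriptions over 10 genes from libraries that share the gates and the assay.

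**Figure D1:**
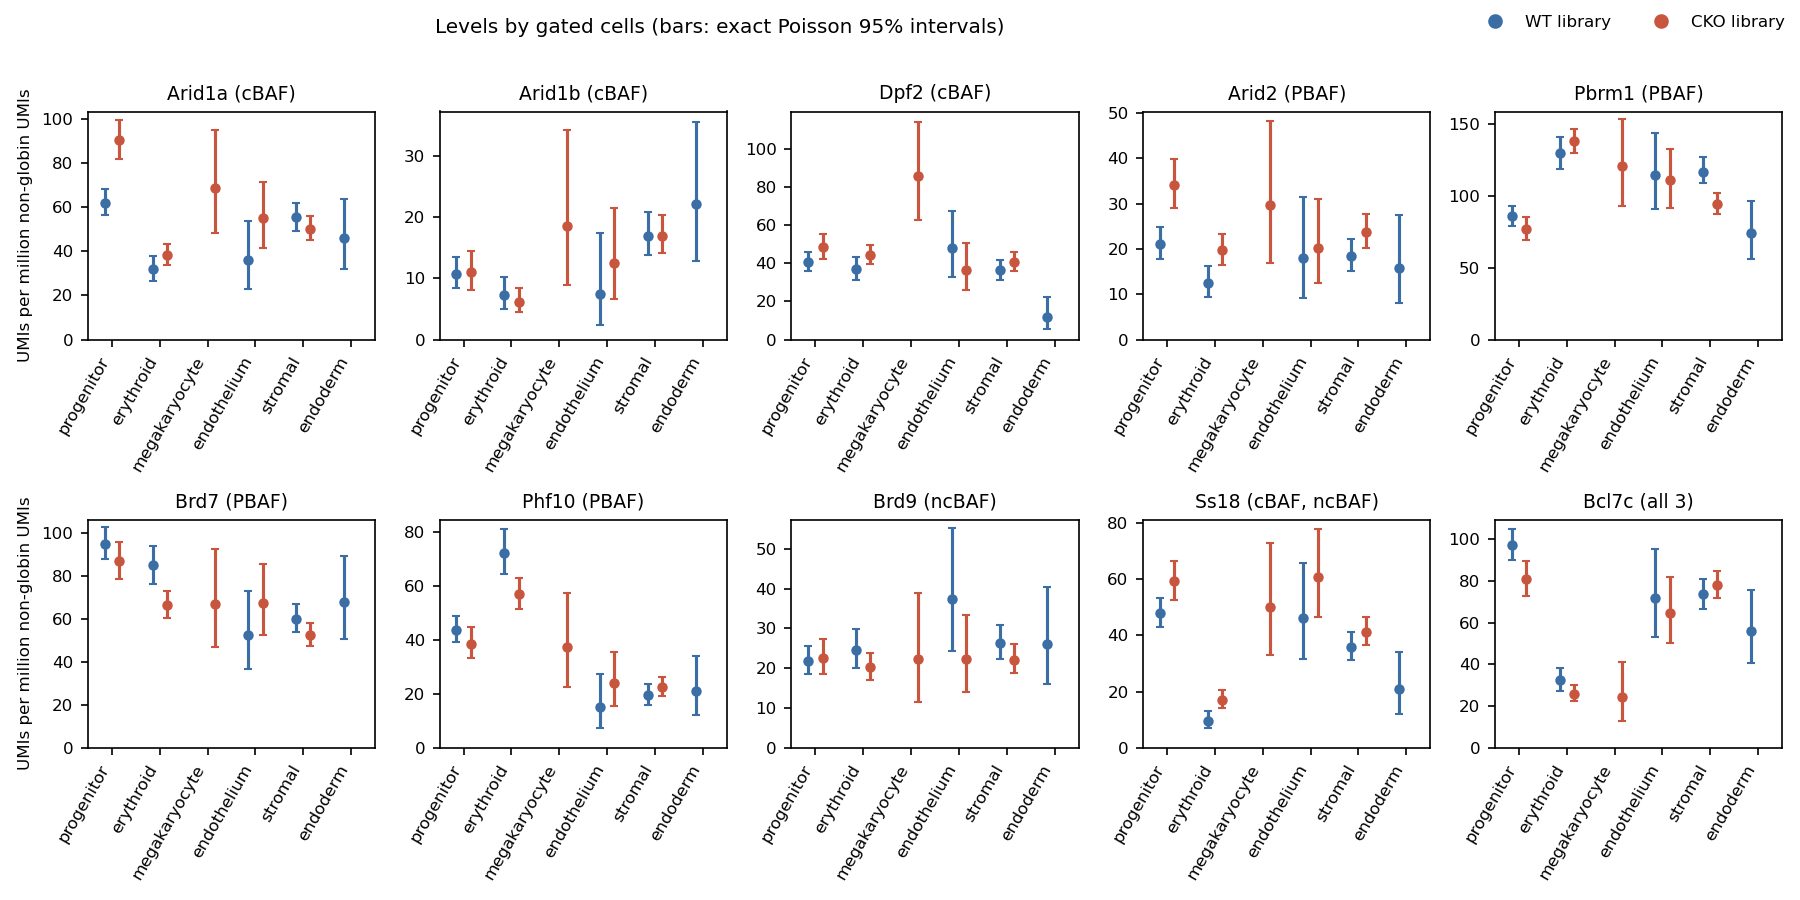
Level of each member (y axis, non-globin CPM; each panel has its own scale from 0) in gated cells of the WT library (blue) and the CKO library (red), for pools of at least 20 cells; points are pooled levels and bars exact Poisson 95% intervals of counting error. Ss18 and Bcl7c are at their lowest WT level in erythroid cells, where Pbrm1 and Phf10 are at their highest on this scale; per all UMIs Pbrm1 is higher in WT stromal cells.

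Among the cBAF subunits, Arid1a (chr4:133679008-133756769, minus strand, GRCm38), the large ARID-domain subunit of most cBAF complexes, stood highest in progenitor cells of both libraries. Its WT level was 61.9 non-globin CPM (56.2 to 68.0) in progenitor, 55.3 in stromal, 45.8 in endoderm, 35.9 in endothelial and 31.9 (26.7 to 37.7) in erythroid cells. No neighbouring pair in that order had a ratio interval that left out 1, while the progenitor level was 1.94-fold (1.60 to 2.37) the erythroid level. In CKO it was 90.3 in progenitor, 68.8 in megakaryocyte, 55.0 in endothelial, 50.3 in stromal and 38.4 in erythroid cells, and progenitor was 2.35-fold (2.01 to 2.75) erythroid.

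Arid1b (chr17:4994332-5347656, plus strand), the paralogue that takes the place of ARID1A in a cBAF complex, followed another order, with its highest levels outside the progenitors. In WT it was at 22.2 non-globin CPM in endoderm, 17.0 in stromal, 10.7 in progenitor, 7.48 in endothelial (5 UMIs) and 7.27 in erythroid cells. In stromal cells it was 1.58-fold (1.16 to 2.17) the progenitor level in WT and 1.55-fold (1.10 to 2.19) in CKO. The Arid1a ratio was 0.893 (0.770 to 1.03) in WT, an interval that holds 1, and 0.557 (0.481 to 0.644) in CKO. Of the UMIs of the pair, Arid1b took 14.8% (11.8 to 18.2) in WT progenitor, 23.5% (19.5 to 27.9) in WT stromal and 32.7% (20.3 to 47.1) in WT endoderm cells. In CKO the share was 10.9% in progenitor and 25.3% in stromal cells. So the ARID1 pair leaned further to Arid1b in stromal than in progenitor cells of both libraries.

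Dpf2 (chr19:5896516-5913010, minus strand), the double-PHD-finger subunit that reads acylated histone tails, varied little among the main classes. Its WT levels were 40.8 non-globin CPM in progenitor, 37.0 in erythroid, 36.3 in stromal and 47.9 in endothelial cells, and the ratio intervals between neighbours all held 1. Endoderm stood apart at 11.8 (5.38 to 22.3), from 9 UMIs. In CKO it was highest in megakaryocyte-gated cells, at 85.5 (62.6 to 114), against 48.5 (42.4 to 55.3) in progenitor cells. The 25 megakaryocyte cells have a WT counterpart of 1 cell, so this level has no WT value to set beside it.

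The paralogues Dpf1 and Dpf3, which can take the DPF2 position and are known from brain and muscle, were almost absent from progenitor and endothelial cells. Dpf2 held 96.6% (93.9 to 98.4) of the UMIs of the 3 genes in WT progenitor cells and 100% of 32 in endothelial cells. It held 84.5% in WT erythroid, 65.3% (59.8 to 70.5) in WT stromal and 40.9% (20.7 to 63.6) in WT endoderm cells. In CKO stromal cells the Dpf2 share was 79.2% (74.6 to 83.3), outside the WT interval. There Dpf1 went from 5.96 to 3.37 CPM and Dpf3 from 13.3 to 7.32 CPM, while Dpf2 was at 36.3 and 40.7.

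Among the PBAF subunits, Pbrm1 (chr14:31019138-31121592, plus strand) encodes BAF180, whose row of bromodomains binds acetylated histones. On the non-globin scale it was highest in erythroid cells of both libraries. Per all UMIs it was at 92.2 CPM in WT erythroid against 117 CPM in WT stromal cells. In WT it was at 130 non-globin CPM (119 to 141) in erythroid, 117 in stromal, 115 in endothelial, 86.0 (79.2 to 93.1) in progenitor and 74.5 in endoderm cells. In CKO it was at 138 in erythroid, 121 in megakaryocyte, 111 in endothelial, 94.5 in stromal and 77.2 in progenitor cells. Erythroid cells thus had 1.51-fold (1.34 to 1.70) the progenitor level in WT and 1.79-fold (1.59 to 2.03) in CKO.

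Phf10 (chr17:14945009-14961273, minus strand), BAF45A, the PHD-finger subunit that fills in PBAF the place DPF2 has in cBAF, was highest in erythroid cells and low outside blood. Its WT level was 72.4 non-globin CPM (64.6 to 81.0) in erythroid, 43.8 in progenitor, 20.9 in endoderm, 19.5 in stromal cells, and in endothelial cells, with 10 UMIs, the interval was 7.18 to 27.5. The ratio intervals separated erythroid from progenitor and progenitor from endoderm cells, but none of the lower 3 from its neighbour. In CKO the levels were 56.9 in erythroid, 38.6 in progenitor, 37.2 in megakaryocyte, 24.1 in endothelial and 22.6 in stromal cells. Erythroid was 1.65-fold (1.41 to 1.94) progenitor in WT and 1.47-fold (1.23 to 1.77) in CKO, and progenitor was 2.25-fold (1.81 to 2.82) and 1.71-fold (1.37 to 2.13) stromal. Of the Phf10 and Dpf2 UMIs, Phf10 took 66.2% in WT erythroid and 34.9% in WT stromal cells.

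Brd7 (chr8:88331039-88362194, minus strand), the bromodomain subunit of PBAF, was higher in progenitor than in stromal cells of both libraries, 1.58-fold (1.38 to 1.80) in WT and 1.65-fold (1.43 to 1.91) in CKO. In WT progenitor cells its interval was 87.9 to 103 non-globin CPM, from 663 UMIs, and its level was 84.9 in erythroid, 68.0 in endoderm, 60.2 in stromal and 52.4 in endothelial cells. In CKO it was at 86.9 in progenitor, 66.5 in erythroid and 52.5 in stromal cells. Arid2 (chr15:96287518-96404992, plus strand), BAF200, the ARID subunit that only PBAF holds, had few UMIs. It was at 21.1 non-globin CPM in progenitor, 18.4 in stromal and 12.4 (9.31 to 16.3) in erythroid cells of WT, and at 34.1, 23.8 and 19.7 in CKO. Progenitor cells had 1.70-fold (1.23 to 2.37) the erythroid level in WT and 1.73-fold (1.37 to 2.20) in CKO. Arid2 thus stood lower in erythroid cells, where its PBAF partners Pbrm1 and Phf10 stood higher on this scale.

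Brd9 (chr13:73937811-73960895, plus strand), the bromodomain subunit found only in ncBAF, was highest in endothelial cells in WT and nearly level in CKO. Its WT levels ran from 21.8 non-globin CPM in progenitor cells through 24.6 in erythroid, 26.1 in endoderm and 26.3 in stromal to 37.4 (24.2 to 55.2) in endothelial cells, and no neighbours were separated by their intervals. The ends of that order were, with WT endothelial cells at 1.72-fold (1.08 to 2.63) the progenitor level. In CKO this ratio was 0.981 (0.596 to 1.55), and all 5 pools lay between 20.2 and 22.6. Ss18 (chromosome 18), the subunit that enters both cBAF and ncBAF and is fused in synovial sarcoma, was lowest in erythroid cells of both libraries. In WT it was at 48.0 non-globin CPM (43.0 to 53.4) in progenitor, 46.4 in endothelial, 36.0 in stromal, 20.9 in endoderm and 9.61 (6.90 to 13.0) in erythroid cells. Erythroid cells had 4.99-fold (3.60 to 7.09) less than progenitor cells in WT. In CKO Ss18 was at 59.3 in progenitor, 60.8 in endothelial and 17.1 in erythroid cells, which had 3.48-fold (2.79 to 4.35) less. Its paralogue Ss18l1 did not replace it, with 4 UMIs in WT erythroid cells against 41 of Ss18.

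Bcl7c (chr7:127661456-127708933, minus strand), of a small family of BAF subunits whose function is little known, was also lowest in WT in erythroid cells. Its WT level was 97.3 non-globin CPM (90.1 to 105) in progenitor, 73.7 in stromal, 71.9 in endothelial, 56.2 in endoderm and 32.6 (27.4 to 38.5) in erythroid cells. In CKO it was at 80.9 in progenitor, 78.2 in stromal, 64.7 in endothelial, 25.9 in erythroid and 24.2 (12.9 to 41.3) in megakaryocyte cells. Erythroid cells had 2.99-fold (2.48 to 3.61) less than progenitor cells in WT and 3.13-fold (2.61 to 3.76) less in CKO. Bcl7b, its paralogue, held its place there. Of the Bcl7a, Bcl7b and Bcl7c UMIs, Bcl7c took 66.2% and Bcl7b 23.8% in WT progenitor cells, against 36.4% and 53.7% in WT erythroid cells. In CKO the Bcl7c share was 59.6% in progenitor and 31.6% in erythroid cells, so the lead passed to Bcl7b in erythroid cells of both libraries.

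**Figure D2:**
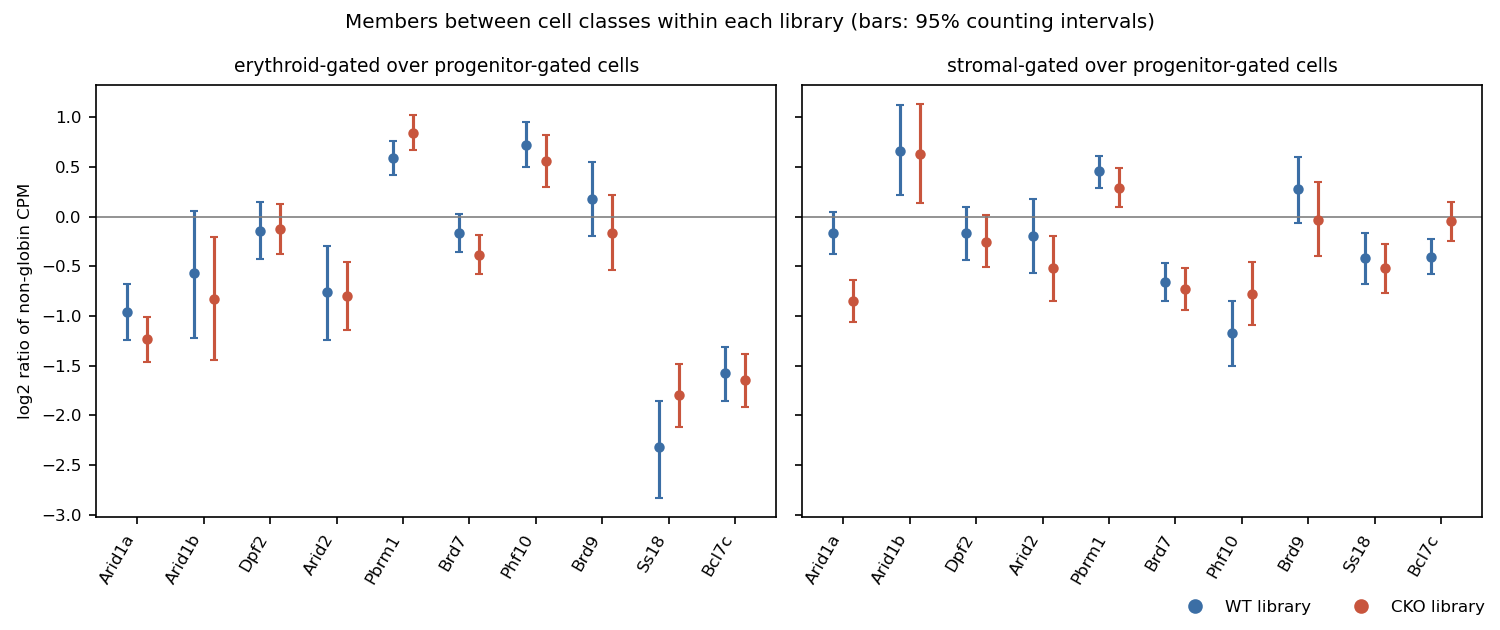
Log2 ratio of the non-globin level in erythroid-gated (left) or stromal-gated (right) cells over progenitor-gated cells (y axis) for each member (x axis), within the WT library (blue) and within the CKO library (red); bars are 95% counting intervals and the line marks equal levels. On the left, Ss18 and Bcl7c lie lowest and Pbrm1 and Phf10 lie above 0 in both libraries; per all UMIs the intervals of Pbrm1 in WT and Phf10 in CKO hold equal levels.

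The start-site windows of 3 members that part ways between progenitor and erythroid cells follow, Pbrm1 and Phf10 (higher in erythroid cells on the non-globin scale) and Bcl7c (lower). Each runs 5′ to 3′ on the gene's strand from 250 bases before to 50 after the RefSeq start (GRCm38.p6), at chr14:31018888-31019187 (plus), chr17:14961211-14961510 (minus) and chr7:127708717-127709016 (minus). Capitals mark the ETS core CCGGAA and the E-box CACGTG, searched on both strands, and no other motif.
Pbrm1: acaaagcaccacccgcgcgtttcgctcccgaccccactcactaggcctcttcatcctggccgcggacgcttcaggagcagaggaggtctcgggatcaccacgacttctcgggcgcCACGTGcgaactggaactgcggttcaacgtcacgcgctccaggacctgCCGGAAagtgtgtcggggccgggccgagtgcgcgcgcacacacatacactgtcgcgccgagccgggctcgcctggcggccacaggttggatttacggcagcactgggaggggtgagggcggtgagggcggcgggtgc
Phf10: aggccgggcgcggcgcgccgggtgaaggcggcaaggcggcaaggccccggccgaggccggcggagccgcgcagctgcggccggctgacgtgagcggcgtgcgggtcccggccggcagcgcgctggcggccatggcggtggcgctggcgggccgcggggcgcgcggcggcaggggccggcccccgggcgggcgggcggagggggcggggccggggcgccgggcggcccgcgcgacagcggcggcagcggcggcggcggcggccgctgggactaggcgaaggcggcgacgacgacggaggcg
Bcl7c: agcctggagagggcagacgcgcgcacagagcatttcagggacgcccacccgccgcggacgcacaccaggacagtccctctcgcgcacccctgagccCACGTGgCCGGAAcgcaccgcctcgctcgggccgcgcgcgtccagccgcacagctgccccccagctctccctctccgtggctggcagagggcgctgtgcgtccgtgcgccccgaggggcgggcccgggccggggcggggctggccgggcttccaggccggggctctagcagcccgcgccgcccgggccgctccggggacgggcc
Pbrm1 and Bcl7c each held 1 ETS core and 1 E-box, motifs that 14.9% and 7.15% of all 32851 mouse start windows in the table hold, and in Bcl7c they stood 1 base apart. The Phf10 window held neither and was 87.0% G and C with 62 CpG pairs, against medians of 52.7% and 7 over all windows. None of these 3 windows held GATAA (25.4% of windows do), CCAAT (37.4%), TATAAA (13.6%) or the NRF1 core motif (0.971%), while GGGCGG (35.7%) was found in all of them. Arid1a, also lower in erythroid cells, has windows that are not shown. That at chr4:133756720-133757019 held 1 GATAA and 1 ETS core, and its other window held neither. Pbrm1 and Bcl7c held the same marked motifs and had opposite erythroid-over-progenitor directions on the non-globin scale. Per all UMIs the Pbrm1 interval in WT held 1. Whether these motifs bear on the levels was not tested. A match is a run of letters and not a bound site. Windows were found for 8 of the 10 members.

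PBAF-only subunits (Arid2, Pbrm1, Brd7, Phf10) took a larger share of the UMIs in erythroid cells than elsewhere, and a smaller share in CKO than in WT progenitor and erythroid cells. The share is of the summed UMIs of the 4 PBAF-only and the 3 cBAF-only subunits (Arid1a, Arid1b, Dpf2), a measure chosen after the members' values were seen. A 5′ tag is counted once per transcript whatever its length, but genes differ in capture, so only shares across classes or libraries are compared. In WT it was 79.7% (77.7 to 81.7) in erythroid, 68.4% (66.6 to 70.2) in progenitor, 68.7% in endothelial, 69.2% in endoderm and 66.5% in stromal cells. In CKO it was 75.9% (74.2 to 77.6) in erythroid, 61.2% (58.9 to 63.5) in progenitor, 68.1% in endothelial and 64.1% in stromal cells. The counting intervals of WT and CKO were apart in progenitor and erythroid cells and overlapped in endothelial and stromal cells.

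The CKO-minus-WT difference was -7.18 percentage points in progenitor cells, and without Arid1a it was -2.75 points. In erythroid cells it was -3.77 points, and without Pbrm1 it was -7.41 points. In cells with Xist and no Y-linked UMIs, and in cells with Y-linked and no Xist UMIs, which come from different embryos, the difference was -11.6 and -5.10 points in progenitor and -1.12 and -5.60 points in erythroid cells. It kept its sign in all 16 alternatives in both classes, in 10 of 14 in endothelial and in 14 of 16 in stromal cells.

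**Figure D3:**
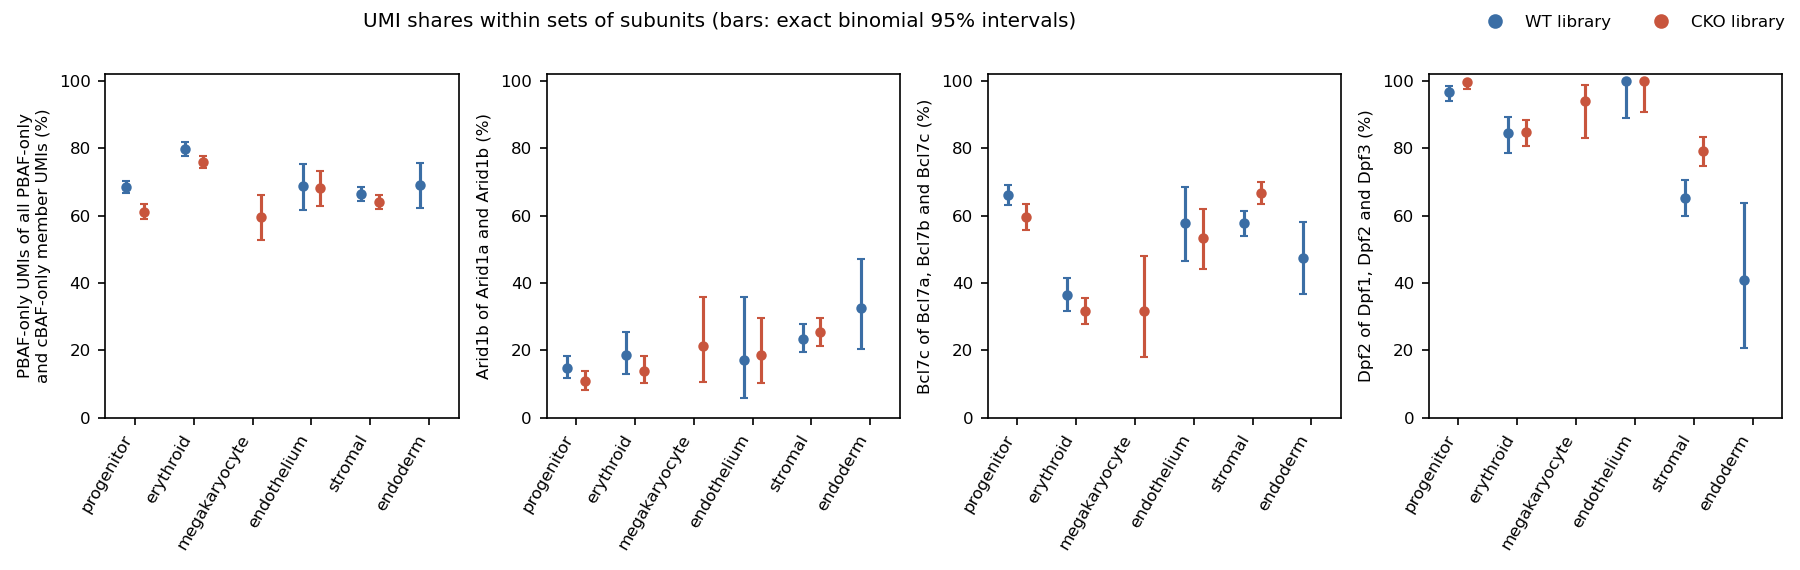
Share of UMIs (y axis, percent) taken by PBAF-only subunits, by Arid1b within the ARID1 pair, by Bcl7c within the Bcl7 family and by Dpf2 within the Dpf family, for gated pools of at least 20 cells of the WT (blue) and CKO (red) libraries; bars are exact binomial 95% intervals. The PBAF-only share is highest in erythroid cells, where Bcl7c takes the smallest WT share of its family.

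Between genotypes the members moved little, and in the 4 classes compared no member was 1.5-fold lower in CKO where it had at least 50 UMIs in both libraries together. In progenitor cells 1 of 10 members (Arid2) was at least 1.5-fold higher in CKO and 0 lower, against 13.3% higher and 8.36% lower of 8516 genes at that depth. In erythroid cells 2 of 10 (Arid2, Ss18) were higher and 0 lower, against 15.8% and 8.27% of 7434 genes. In endothelial cells 6 members had the UMIs, and 1 (Arid1a) was higher and 0 lower, against 10.2% and 14.8% of 4350 genes. In stromal cells 0 of 10 were higher and 0 lower, against 11.4% and 9.78% of 9421 genes. These counts are near the background or under it. The median log2 ratio of the members tested was 0.04, -0.03, 0.15 and 0.04 in these 4 classes, and that of all genes tested was 0.00, 0.08, -0.05 and -0.02. Summed over the 10 members, the log2 ratio was 0.06 in progenitor, 0.01 in erythroid, 0.08 in endothelial and -0.06 in stromal cells.

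Arid2 and Ss18 had ratios above 1 in all 4 classes. The Arid2 level went from 21.1 CPM in WT to 34.0 CPM in CKO progenitor cells, 1.61-fold (1.28 to 2.03), from 147 and 158 UMIs. In erythroid cells it went from 8.83 to 14.4 CPM, 1.63-fold (1.18 to 2.28), and in stromal cells from 18.4 to 23.7 CPM, 1.29-fold (1.00 to 1.66). The endothelial ratio was 1.13 (0.529 to 2.51). It was above 1 in 7 of 10 alternatives, with a log2 ratio of -0.38 when thinned to 10000 UMIs. The Arid2 ratio stayed above 1 in all 12 alternatives in progenitor, erythroid and stromal cells. In erythroid cells, though, the ratio was 1.15 (0.640 to 2.06) in the Y-positive cells and 1.45 (0.941 to 2.31) in the Xist-positive cells, 1.94 with cells weighted equally and 2.89 (1.38 to 6.75) when thinned to 10000 UMIs, from 9 WT and 41 CKO UMIs.

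Arid1a was higher in CKO progenitor cells and not in stromal cells. Its ratio was also above 1 in erythroid cells, at 1.24 (1.00 to 1.53), and in endothelial cells, at 1.53 (0.934 to 2.58). The progenitor clusters of the 2 libraries were largely separate. It was at 61.9 CPM in WT progenitors and 90.1 CPM in those of CKO, 1.46-fold (1.27 to 1.67), with 1.80-fold in Xist-positive and 1.44-fold in Y-positive cells. In stromal cells it was at 55.2 and 50.2 CPM, a ratio of 0.908 (0.777 to 1.06). The progenitor difference was seen in cells with at least 3 Mpo UMIs (myeloperoxidase, a granulocyte gene), at 62.4 (55.3 to 70.1) in 106 WT and 98.9 (88.9 to 110) non-globin CPM in 88 CKO cells. In cells with under 3 Mpo UMIs it was at 61.0 in both, from 71 WT and 30 CKO cells. Thinned to 10000 UMIs a cell, 42.9% of WT and 47.0% of CKO progenitors had an Arid1a UMI, against 89.8% and 91.5% unthinned. At the thinned depth the level ratio was 1.22 (0.905 to 1.65), an interval that holds 1. No class lacks these broadly expressed genes, so a share that only free RNA gives cannot be set beside these. The lowest unthinned Arid1a share in WT was 36.2%, in endothelial cells with a median depth of 11894 UMIs.

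In erythroid cells Ss18 was at 6.83 CPM (41 UMIs) in WT and 12.5 CPM (118 UMIs) in CKO, 1.82-fold (1.27 to 2.67). The ratio was 1.94 (1.17 to 3.36) in Xist-positive and 1.32 (0.693 to 2.53) in Y-positive cells, and 2.49 with cells weighted equally and 2.71 (1.17 to 7.32) when thinned, from 7 WT and 30 CKO UMIs. The erythroid clusters of the 2 libraries were likewise largely separate. In erythroid cells with embryonic globins at 20% of UMIs or more, Ss18 was at 8.71 (5.88 to 12.4) in WT and 17.8 (14.3 to 21.8) non-globin CPM in CKO. Below 20% it was at 13.4 (6.69 to 24.0) and 14.9 (9.85 to 21.7). In progenitor cells Ss18 was 1.23-fold (1.05 to 1.45) higher in CKO.

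**Figure D4:**
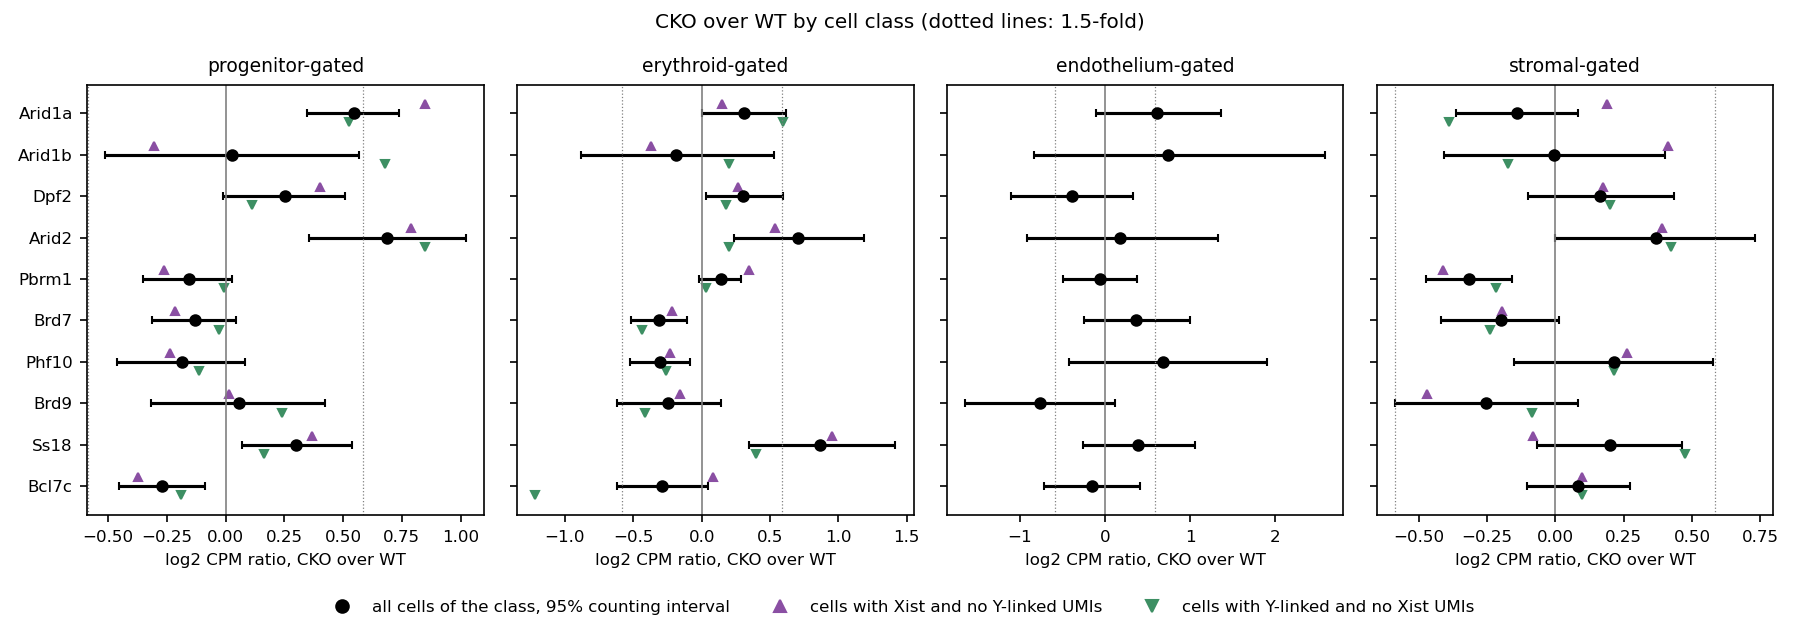
Log2 ratio of CPM in CKO over WT (x axis; each panel has its own range) for each member (y axis) in 4 cell classes; circles are all cells of the class with 95% counting intervals, triangles the Xist-positive (up) and Y-positive (down) cells alone, and dotted lines 1.5-fold. Arid2 lies right of 0 in every panel, and the Bcl7c triangles of erythroid cells lie far apart, at 0.09 and -1.22.

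The remaining differences were smaller than 1.5-fold in the classes with at least 50 UMIs. Pbrm1 was lower in CKO stromal cells, at 94.2 against 117 CPM, a ratio of 0.803 (0.720 to 0.896), and at 1.10 (0.987 to 1.22) in erythroid cells. Brd7 was at 0.805 (0.700 to 0.926) and Phf10 at 0.808 (0.694 to 0.941) in erythroid cells. Both stood on the same side of 1 in Xist-positive and in Y-positive cells there. Bcl7c was at 0.829 (0.729 to 0.942) in progenitor cells. In erythroid cells its pooled ratio of 0.816 joined 1.06 (0.771 to 1.49) in Xist-positive and 0.430 (0.266 to 0.678) in Y-positive cells, values whose counting intervals did not overlap. So the Xist-positive and Y-positive cells of the same pair of libraries differed beyond counting error for that gene. Sex and embryo cannot be told apart in such a split, and splits were made for every member in progenitor, erythroid and stromal cells.

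Dpf2 was at 1.19 (0.991 to 1.42) in progenitor and 1.23 (1.02 to 1.51) in erythroid cells. Brd9 was between 0.592 and 1.04 over the 4 classes, and Arid1b between 0.879 and 1.67, the last from 5 WT and 13 CKO endothelial UMIs. For these 2 genes every ratio interval held 1. Xist-positive and Y-positive progenitor cells numbered 94 and 68 in WT and 39 and 58 in CKO. Erythroid cells numbered 73 and 62 in WT and 170 and 63 in CKO, and stromal cells 101 and 122 and 105 and 128. Pooled progenitor and erythroid ratios thus also compare different sex mixes, whose part was not tested. The sign of the ratio was the same in Xist-positive and Y-positive cells for 9 of 10 members in progenitor, 8 of 10 in erythroid and 7 of 10 in stromal cells. Higher in both sets and in all these 3 classes were Dpf2 and Arid2, and lower in both sets and all 3 was Brd7. Both sets come from the same 2 libraries, and the share of all genes with the same sign was not computed. Whether the members differ from other genes in this was therefore not tested.

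CKO progenitor cells were also compared among themselves by the Smarcc1 UMIs they kept, 53 cells with 0 against 36 with at least 2. Arid1a was at 95.7 CPM in the cells with 0 and 70.0 CPM in the others, a ratio of 1.37 (1.08 to 1.73). Arid2 was at 37.2 and 30.2 CPM, a ratio of 1.23 (0.850 to 1.79). Phf10 was at 32.1 and 45.1 CPM, a ratio of 0.712 (0.499 to 1.01). Cells with 0 Smarcc1 UMIs were shallower, with a median of 29965 UMIs against 50302, and the part of depth in these ratios was not tested. In stromal cells, with 175 against 47 cells, the Arid1a ratio was 1.10 (0.832 to 1.47) and that of Bcl7c 1.41 (1.11 to 1.80).

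Cells that passed both the progenitor and the endothelium gate, 13 in WT and 61 in CKO, were kept out of the classes above. They had a PBAF-only share of 71.3% (64.5 to 77.4) in WT and 55.7% (52.2 to 59.2) in CKO, where Pbrm1 was at 109 and 62.6 CPM, a ratio of 0.573 (0.423 to 0.783). Arid1a was at 50.4 and 82.8 CPM, a ratio of 1.64 (1.11 to 2.52), and Arid1b at 5.21 and 18.0 CPM, a ratio of 3.45 (1.10 to 17.4) from 3 WT and 41 CKO UMIs. Arid2, higher in CKO progenitor-gated cells, was not higher here, at 27.8 and 25.8 CPM, a ratio of 0.930 (0.528 to 1.73). Smarcc1 was at 134 and 11.8 CPM. The 13 WT cells limit these values.

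Cells that passed both the progenitor and the macrophage gate, 31 in WT and 13 in CKO, were also kept out. Smarcc1 was at 84.2 CPM in WT and 80.8 CPM among CKO cells, a ratio of 0.960 (0.683 to 1.34). Arid1a was at 46.5 and 68.7 CPM there, a ratio of 1.48 (0.986 to 2.21), and Arid2 at 14.0 and 28.3 CPM, a ratio of 2.02 (1.00 to 4.13). A lower Smarcc1 level was not detectable in these 13 CKO cells, unlike in the 4 classes, and the Arid1a and Arid2 ratios were above 1 with intervals that reached 1 or below.

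Of 20 other BAF genes found, besides Smarcc1, 11 had at least 50 UMIs in progenitor, 12 in erythroid, 8 in endothelial and 14 in stromal cells. None was past 1.5-fold in progenitor cells, with a median log2 ratio of -0.03 over those tested. In erythroid cells Smarcc2, which encodes the BAF155 paralogue BAF170, was higher, with 6.67 CPM (WT) against 10.1 CPM (CKO), 1.52-fold (1.04 to 2.26), and Bcl11a, a regulator of globin switching, was lower, at 8.33 and 1.06 CPM. In progenitor cells Smarcc2 was at 11.9 and 13.8 CPM, a ratio of 1.16 (0.822 to 1.62). In endothelial cells Smarcd1, a core subunit, was lower, with a ratio of 0.629 (0.401 to 0.985). In stromal cells Dpf1, Dpf3 and Bcl7a were lower, with ratios of 0.564, 0.549 and 0.571, and the median log2 ratio over the 14 was -0.34. Bcl7b was at 0.755 (0.628 to 0.907) there, while Bcl7c was at 1.06 (0.930 to 1.21). Thus the stromal BAF genes past the fold were paralogues of members and not members. These paralogues had fewer UMIs, with 34 WT and 23 CKO for Dpf1, 76 and 50 for Dpf3 and 57 and 39 for Bcl7a. The member with the fewest, Arid1b, had 97 and 116. Of all 9421 stromal genes with at least 50 UMIs, 9.78% were at least 1.5-fold lower. The part of UMI number in this contrast was not tested.

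For each member the 3 most alike genes over the 10 pools were taken, by Pearson correlation of log2(CPM + 1). They were sought among 5175 genes with a mean of at least 20 CPM, which leaves out BAF genes such as Dpf1 and Ss18l1. No other BAF gene was among these 3. With so few BAF genes among those compared, this does not show whether BAF genes vary together. Bcl7c was most like Mtap (r = 0.995) and Nfkbia (0.988), Ss18 most like Rcbtb2 (0.989) and Brd7 most like Eif6 (0.978). Pbrm1 had the weakest best match, Ehd3 (0.881), with a log2 CPM range of 0.66 over the pools. These correlations use CPM per all UMIs, so the globin share enters them. Among the members, Arid1a and Arid2 were most alike (r = 0.92), followed by Arid2 and Ss18 (0.87) and Arid1a and Ss18 (0.85), and Phf10 and Brd9 were most opposed (-0.82). The pools share libraries and depth differences, and these values are descriptions.

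The Pbrm1 gene overlaps Gnl3 and Smim4, among others, on the other strand, and Phf10 overlaps 1600012H06Rik. Arid1b, Dpf2, Brd9 and Bcl7c also overlap annotated genes on the other strand. Nothing in the sources used here says whether counting used strand, and without it UMIs from such overlaps cannot be told apart.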

How the data were processed

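The authors deposited UMI counts per gene and cell barcode for 2 libraries (815 WT and 865 CKO barcodes, 24538853 and 27314411 UMIs), made with Cell Ranger and Seurat on GRCm38 per the submitters' processing notes; versions and filters were not given in the sources used here. 1 barcode occurred in both libraries. Cells over 10% mitochondrial UMIs or under 500 genes were left out, as were 3 WT and 6 CKO doublets called by Scrublet (scanpy 1.11.5, expected rate 1%). A cell entered a class with at least 3 UMIs in each of 5 markers (3 markers for progenitor and macrophage), thresholds set on marker values; cells in no class or several stayed out. UMIs were summed per class and library and given as CPM. Between classes globin UMIs were left out of the total. This choice decides the erythroid-over-progenitor calls of Dpf2 in both libraries, of Pbrm1, Brd7 and Arid1b in WT, and of Phf10 and Brd9 in CKO. With 1 library per genotype no test was run; a gene counted as past 1.5-fold where both libraries together had at least 50 UMIs. Intervals came from scipy 1.17.1. Those of ratios were tested on simulated Poisson counts, which hold no spread between cells or libraries beyond counting error. Named genes were all 10 members, Smarcc1, the BAF list and, for each member, its 3 most alike genes. The members and lists were chosen with earlier results of these data known. Gene positions are from GENCODE M21, and 97.6% of gene identifiers matched it. The 12 alternatives changed cell filters, gates, scaling, depth, and the sex and Smarcc1 subsets. The PBAF-only share and its alternatives, the Mpo and globin splits, the split by Smarcc1 UMIs and the cells of 2 gates were added after seeing the data.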

Additional observations from a re-analysis of the deposited data

Results flagged for a closer look

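Arid1a stood on opposite sides of 1 in progenitor and stromal cells, with CKO over WT ratios of 1.46 and 0.908 and counting intervals that did not overlap. Pbrm1 did so in erythroid and stromal cells, with ratios of 1.10 and 0.803. Neither difference between classes was tested, since each genotype has 1 library. In stromal cells the Arid1a ratio itself differed between the Xist-positive (1.14) and the Y-positive cells (0.763).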

How the results depend on the processing

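Summed over the 10 members, the log2 CKO over WT ratio moved beyond its counting interval in progenitor cells when cells were weighted equally (-0.02, against 0.06), and in erythroid cells in the Xist-positive (0.11) and Y-positive cells (-0.12, against 0.01). Single-member ratios were taken under the 12 alternatives (10 in endothelial cells). Those that stayed within their counting intervals were 113 of 120 in progenitor and 114 of 120 in erythroid cells. In endothelial cells they were 99 of 100 and in stromal cells 115 of 120. None past 1.5-fold changed direction. These counts include alternatives that could move little. In progenitor cells, keeping doublets changed no cell. Without cell filters there were 181 WT and 119 CKO progenitor cells, against 177 and 118. Thinned to 10000 UMIs, 4 progenitor members had log2 ratios of the other sign than at full depth, Arid1b (-0.88, against 0.03), Phf10 (0.33, against -0.19), Dpf2 (-0.28, against 0.25) and Pbrm1 (0.07, against -0.16), as did Arid2 in endothelial (-0.38, against 0.17) and Ss18 in stromal cells (-0.04, against 0.20); the erythroid Arid2 value went from 0.70 to 1.53 and that of Ss18 from 0.87 to 1.44. The PBAF-only share difference moved in progenitor cells among the Xist-positive cells (-11.6 points) and without Arid1a (-2.75), in erythroid cells among the Xist-positive cells (-1.12) and without Pbrm1 (-7.41), and in stromal cells among the Xist-positive cells (-6.58, against -2.35). Endothelial cells were too few for the sex subsets (15 and 18 WT, 18 and 19 CKO cells). At a minimum of 20 UMIs, 2 endothelial members were higher and 1 lower of 9. At 200 UMIs, 0 of 7 erythroid members were past 1.5-fold. No paired analysis was possible because each genotype has 1 library. The causes were not tested.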
